A study of Homo sapiens with 4 samples.

Results

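Chromosome 19 zinc finger genes were taken as the protein-coding genes of the human GENCODE annotation (version 44, hg38) that lie on chromosome 19 and have a symbol of ZNF followed by digits only. This gave 240 of the 20033 protein-coding genes outside the mitochondrial genome, and 1236 other protein-coding genes on the same chromosome served for comparison. The label was checked against the coding sequences. All 240 genes encoded at least 1 C2H2 zinc finger, with a median of 12 fingers and a range from 1 in ZNF428 to 39 in ZNF729.

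C2H2 zinc finger proteins bind DNA through arrays of small zinc-holding modules. Many of those encoded on chromosome 19 also carry a KRAB domain, which recruits the corepressor TRIM28 and the histone H3K9 methyltransferase SETDB1, and their best-known task is to silence transposable elements. The genes arose by repeated duplication and stand in clusters, and in most of them a single long 3′ exon holds the whole finger array.

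The cells were HSSY II, a human synovial sarcoma line that carries the SS18::SSX1 fusion, whose protein product joins the SWI/SNF chromatin remodeler. CUT&RUN, in which an antibody directs MNase to cut chromatin around a bound protein, was done for SS18::SSX and for WDR5, a subunit shared by the KMT2 H3K4 methyltransferase complexes. The 4 groups were SS18::SSX with DMSO, SS18::SSX with MS67, WDR5 with DMSO, and WDR5 with MS67, where MS67 is a PROTAC that directs WDR5 to degradation, given at 2.5 μM for 4 days, and DMSO is its solvent. Every library held 1000000 HSSY II cells and 50000 mouse NIH-3T3 cells as spike-in. There was 1 library per group, so no difference between treatments had a replicate check, no p-value is given, and each interval below is an exact 95% Clopper-Pearson or Poisson interval that covers counting error over genes or peaks only. One line was used, and these lists hold no RNA measurement of the genes.

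The authors deposited 1 peak list per library, with 15141 peaks for SS18::SSX with DMSO, 1175 for SS18::SSX with MS67, 35605 for WDR5 with DMSO, and 14123 for WDR5 with MS67. On chromosome 19 they held 778, 33, 1942, and 856 peaks. The background coverage recovered from the peak values was 0.458 times as high in the MS67 library of WDR5 as in its DMSO library, and 1.36 times as high in the MS67 library of SS18::SSX as in its DMSO library. A peak absent with MS67 therefore cannot be told apart from a peak missed in a shallower library for WDR5. This coverage was the lowest background among the called peaks of a list. For SS18::SSX with MS67 it rests on 1175 peaks and need not reach the level of the whole genome. Whether that library was the deeper of its pair was not measured. The strength of a peak is given as −log10 q, the false discovery measure of its caller MACS2, and as the pileup, the number of fragments over its summit.

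A peak was counted at a promoter when its centre lay between 1000 bp before and 100 bp after any annotated start site of the gene. With DMSO, WDR5 peaks lay at the promoters of 86 of the 240 genes (35.8%, 95% CI 29.8 to 42.3%), where the share over all protein-coding genes was 43% and over the other chromosome 19 genes 44.9% (42.1 to 47.7%). The intervals of members and of the other genes overlapped slightly. SS18::SSX peaks lay at 21 promoters (8.75%, 5.50 to 13.1%), against 13.4% over all protein-coding genes and 21.8% (19.6 to 24.3%) over the other genes of the chromosome. The zinc finger genes thus held fewer SS18::SSX promoter peaks than their neighbours on the chromosome, and the intervals of these shares did not overlap. With MS67, WDR5 was called at 58 of the promoters (24.2%, 18.9 to 30.1%), against 27.7% over all protein-coding genes and 27.3% (24.9 to 29.9%) over the other genes of the chromosome. With the stricter limits of a −log10 q above 3 and a fold above 6, 9.17% of members were marked with DMSO (5.83 to 13.5%) and 10.8% with MS67 (7.20 to 15.5%). The order of the treatments thus turned, but the intervals overlapped. At these limits 12.1% (10.4 to 14.1%) of the other genes of the chromosome were marked with DMSO, and their share with MS67 was not computed. Nor was a share over all protein-coding genes. SS18::SSX was called at 0 of 240 with MS67, which allows a share of up to 1.25% by a limit of 3 counts and 1.53% by the exact interval, against 0.719% over all protein-coding genes, so a share as low as the background could not be told from none with 240 genes.

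The promoter window missed much of the WDR5 signal at these genes. A wider window of 1 kb on either side of a start site was added after the data had been seen. In it, WDR5 peaks with DMSO marked 140 of the 240 genes (58.3%, 51.8 to 64.6%), beside 56.1% of all protein-coding genes and 57.8% (55.0 to 60.6%) of the other genes of the chromosome, so the lower share seen in the narrower window was no longer there. With MS67, 117 genes kept or showed a WDR5 peak in the wider window (48.8%, 42.3 to 55.3%), beside 39.1% of all protein-coding genes and 39.5% (36.7 to 42.3%) of the other genes of the chromosome. SS18::SSX remained rarer than in the other genes, with 29 of 240 (12.1%, 8.24 to 16.9%) against 27.5% (25.03 to 30.1%), and 19.03% of all protein-coding genes had such a peak. None of the 4 lists had a peak within 1 kb of a start of 88 members. This count was not made for the other genes or over all protein-coding genes, so it cannot be called a trait of the members.

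**Figure D1:**
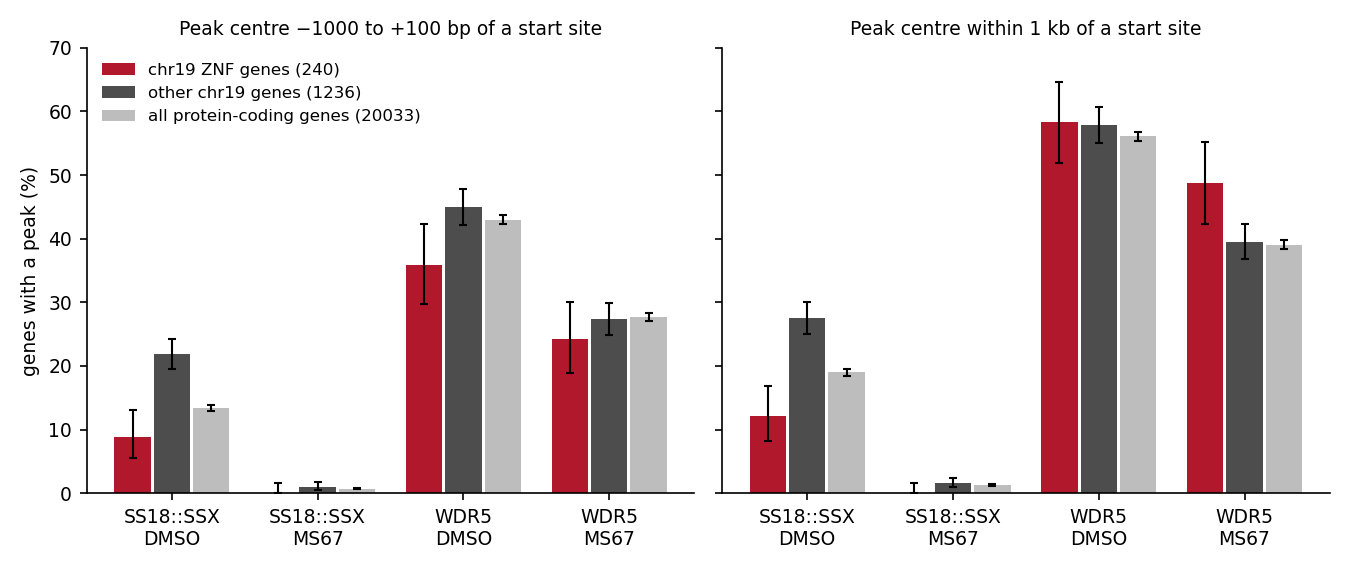
Percentage of genes (y axis) with a peak of each library (x axis) at −1000 to +100 bp of a start site (left) and within 1 kb of one (right), for the 240 zinc finger genes (red), the 1236 other chromosome 19 genes (dark grey), and all 20033 protein-coding genes (light grey), with exact 95% intervals over genes as bars. The red SS18::SSX bar with DMSO stands below both grey bars in each panel, while the red WDR5 bar with DMSO is lower only on the left and the red WDR5 bar with MS67 is the highest of its 3 on the right.

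The difference between the windows came from where the peaks sat. Taking the strongest WDR5 peak within 1 kb of each gene, the centre lay a median of 118 bp inside the zinc finger genes with DMSO and 153 bp inside them with MS67. For the other genes of the chromosome the medians were 8 bp and 47 bp. With DMSO, 76 of the 140 members (54.3%, 45.7 to 62.7%) had this peak more than 100 bp after the nearest start, against 41.4% (37.8 to 45.1%) of the other genes. It lay in an intron in 80 members (57.1%), in an exon in 26 (18.6%), and outside the gene in 34 (24.3%). In the other genes of the chromosome these shares were 47.8%, 22.8%, and 29.4%, so an intron was the most common place in both sets. For SS18::SSX with DMSO the median was −1 bp in 29 members and −76.5 bp in the other genes.

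**Figure D2:**
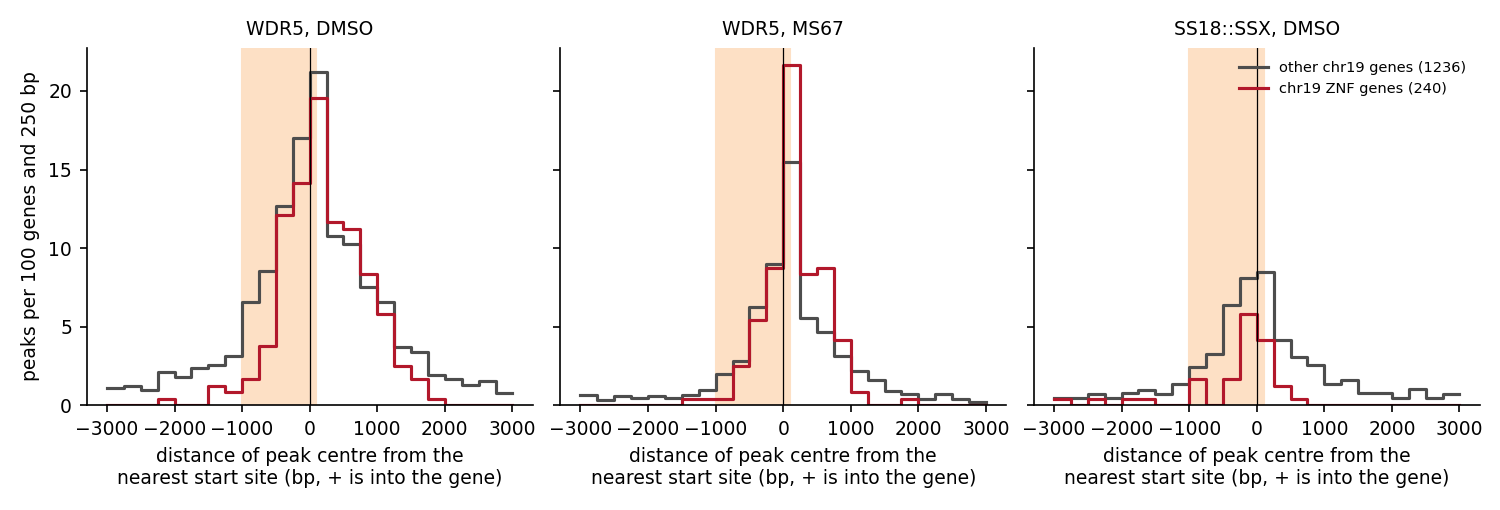
WDR5 and SS18::SSX peaks per 100 genes in each 250 bp step (y axis) by distance of the peak centre from the nearest start site (x axis, positive into the gene), for the zinc finger genes (red) and the other genes of chromosome 19 (grey), with the promoter window shaded. In the first 250 bp after the start the zinc finger genes had 21.7 WDR5 peaks per 100 genes with MS67 and the other genes 15.5, while from 1000 to 750 bp before it they had 1.67 with DMSO and the others 6.55.

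The letters of the promoters were read from RefSeq (GRCh38.p14), which had a sequence from 250 bases before to 50 after the start for 210 of the 240 genes. Their median GC content was 60.0%, against 64.0% in the other genes of the chromosome. The word CCGGAAGT, the core bound by ETS factors such as GABPA, occurred on either strand in 40 of the 210 (19.05%), against 5.02% of the other chromosome 19 genes and 4.14% of all 35116 RefSeq promoters. For this and the words below, members and other genes were counted by the first listed promoter of each gene. The share over all promoters counts every entry, alternative promoters included, and so is not a share of genes. It was found in 23.0% of the members with a WDR5 peak within 1 kb with DMSO and in 13.1% of those without, shares for which no interval was computed. In the other genes of the chromosome these shares were 7.22% and 1.60%, so the direction was not particular to the members. The CCAAT box, searched as CCAAT, occurred in 52.9% of members, 37.9% of the other genes, and 34.6% of all promoters. Other words were no more frequent than in the other genes of the chromosome by such a margin. AAGATGGC of YY1 stood in 6.19% against 5.75%, GCATGCGC of NRF1 in 3.33% against 5.33%, TGACGTCA of CREB in 3.33% against 3.45%, and CACGTG, the E-box of MYC, in 3.81% against 8.88%. Over all promoters these 4 words occurred in 2.89%, 3.05%, 1.85%, and 7.26%. Each word was counted on its own, on both strands, and none of the 6 contains another.

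In 13 of the 30 places where the ETS word stood before the start of a member, it began within 30 bases of it (43.3%, 25.5 to 62.6%), against 30.2% of the places in the other genes of the chromosome and 30.02% over all promoters, both inside that interval. The 8 promoters below are shown because they carry the word at almost the same place, 15 to 21 bases before the start, and yet differed in WDR5. Each run is the 150 bases before the RefSeq start, 5′ to 3′ on the strand of the gene, with the ETS word in capitals, here read from the opposite strand. The first 4 had WDR5 peaks within 1 kb with DMSO and with MS67, the fifth only with DMSO, and the last 3 in neither list.
ZNF419 (chr19:57487600-57487749, plus strand): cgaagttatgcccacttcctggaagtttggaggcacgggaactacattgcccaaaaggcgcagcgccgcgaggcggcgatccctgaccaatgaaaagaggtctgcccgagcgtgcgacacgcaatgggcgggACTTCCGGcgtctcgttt
ZNF776 (chr19:57746665-57746814, plus strand): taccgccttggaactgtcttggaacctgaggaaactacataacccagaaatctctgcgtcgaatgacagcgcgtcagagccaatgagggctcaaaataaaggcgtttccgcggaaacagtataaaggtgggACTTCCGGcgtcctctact
ZNF324 (chr19:58466930-58467079, plus strand): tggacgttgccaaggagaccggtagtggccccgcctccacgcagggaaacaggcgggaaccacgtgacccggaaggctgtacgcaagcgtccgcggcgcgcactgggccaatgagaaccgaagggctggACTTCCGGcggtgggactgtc
ZNF180 (chr19:44500523-44500672, minus strand): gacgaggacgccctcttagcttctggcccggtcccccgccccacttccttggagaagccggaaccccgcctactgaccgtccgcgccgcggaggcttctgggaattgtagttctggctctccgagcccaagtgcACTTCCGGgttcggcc
ZNF134 (chr19:57614092-57614241, plus strand): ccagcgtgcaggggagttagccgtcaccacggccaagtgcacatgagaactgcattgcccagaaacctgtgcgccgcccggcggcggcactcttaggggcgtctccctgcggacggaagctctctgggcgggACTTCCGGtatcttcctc
ZNF671 (chr19:57727625-57727774, minus strand): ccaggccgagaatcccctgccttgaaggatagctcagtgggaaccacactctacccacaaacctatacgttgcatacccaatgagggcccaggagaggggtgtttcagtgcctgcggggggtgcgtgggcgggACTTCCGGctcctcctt
ZNF132 (chr19:58440154-58440303, minus strand): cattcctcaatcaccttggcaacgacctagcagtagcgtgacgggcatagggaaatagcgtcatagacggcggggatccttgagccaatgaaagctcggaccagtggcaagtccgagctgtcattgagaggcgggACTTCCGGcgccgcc
ZNF587 (chr19:57849709-57849858, plus strand): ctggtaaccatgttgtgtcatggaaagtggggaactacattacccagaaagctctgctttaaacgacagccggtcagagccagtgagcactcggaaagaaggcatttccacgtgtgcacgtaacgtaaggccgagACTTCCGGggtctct

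Among these 8 genes, the strongest WDR5 peaks within 1 kb of a start were at ZNF419, where −log10 q was 13.8 with DMSO, from a peak centred 905 bp inside the gene and so outside the promoter window, and 5.99 with MS67. ZNF324 had 10.2 and 7.41. ZNF776 had 7.60 in both libraries, and ZNF180 had 4.98 with DMSO and 7.52 with MS67. ZNF134 had 4.61 with DMSO and no peak with MS67. ZNF175, not printed, also carries the word 18 bases before its start and had 7.08 with DMSO and 6.33 with MS67. These 8 were chosen for their difference in WDR5 after their values were seen, so they say nothing of how the word and WDR5 go together over all members, for which the shares of 23.0% and 13.1% above stand. A match is a description of the letters, not of binding by an ETS factor.

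The SS18::SSX peaks with DMSO within 1 kb of a start had a median −log10 q of 3.61 in members, 3.74 in the other genes of the chromosome, and 3.48 over all protein-coding genes. At the 21 member promoters the −log10 q of the best peak ran from 1.49 at ZNF616 through a median of 3.78 to 8.57 at ZNF548, on pileups of 5 to 19 fragments. ZNF548 had 16 fragments in a peak centred at −48 bp from its start (chr19:57389711-57389894). ZNF787 had 14 fragments and a −log10 q of 8.28 in a peak centred at −309 bp from its start. ZNF555 followed with 7.09, ZNF584 with 6.86, ZNF77 with 6.33, and ZNF653 with 5.61. The next were ZNF682 with 4.47, ZNF574 with 4.02, ZNF547 with 3.88, and ZNF564 with 3.61. ZNF490 and ZNF791, which are transcribed away from each other, shared 1 peak with 3.78. These 12 genes were the strongest, and none had an SS18::SSX peak with MS67.

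Most of the SS18::SSX promoters in this set also carried WDR5. With DMSO, 18 of the 21 (85.7%, 63.7 to 97.0%) had a WDR5 promoter peak, against 188 of 270 (69.6%, 63.8 to 75.1%) in the other genes of the chromosome, and these intervals overlapped. Both proteins were thus at 18 of the 240 members (7.50%, 4.51 to 11.6%), against 9.34% of all protein-coding genes and 15.2% (13.3 to 17.3%) of the other genes. Within 1 kb of a start, 20 of the 21 had WDR5 with DMSO and 15 had it with MS67. ZNF682 was the 1 SS18::SSX promoter with no WDR5 peak in either library. At ZNF547 the WDR5 peak had a −log10 q of 12.3 with DMSO and 6.23 with MS67, and at ZNF548 it had 6.78 and 4.67, so WDR5 peaks remained called at both where the SS18::SSX peak was not.

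The strongest WDR5 promoter peaks with DMSO were at ZNF446 (−log10 q 17.3, pileup 36), ZNF552 (14.6, pileup 30), ZNF547 (12.3, pileup 22), ZNF584 (10.5), and ZNF324 (10.2, pileup 23). These 5 genes lie in the cluster at the end of the long arm. With MS67 the strongest were ZNF446 (10.3, pileup 21), ZNF836 (9.48, pileup 15), the shared peak of ZNF540 and ZNF571 (7.59, pileup 13), and ZNF180 (7.52, pileup 11). The value of ZNF836 with DMSO was 4.52 on 10 fragments, and that of ZNF540 and ZNF571 was 4.63 on 9 fragments, so these peaks stood higher with MS67. In the wider window, chosen after the values were seen, ZNF497 led with MS67 (12.4, against 15.9 with DMSO), followed by ZNF417 (12.1, against 5.04 with DMSO).

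Of the 86 members with a WDR5 promoter peak with DMSO, 38 had none with MS67 (44.2%, 33.5 to 55.3%). The corresponding share was 50.1% over all protein-coding genes and 49.2% (45.0 to 53.4%) over the other genes of the chromosome, and the intervals overlapped. The strongest of these DMSO peaks were at ZNF552 (14.6), ZNF329 (9.18), ZNF575 (8.71), ZNF543 (8.66), and ZNF441 (8.63). In 23 of the 38 an MS67 peak still lay within 1 kb of a start, so that only 15 lacked one nearby. ZNF552 was such a case, with an MS67 peak of 6.50 centred 470 bp inside the gene. ZNF441 had no MS67 peak within 1 kb.

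Conversely, 10 of the 154 members with no DMSO promoter peak of WDR5 had one with MS67 (6.49%, 3.16 to 11.6%). The share was 10.9% over all protein-coding genes and 8.22% (6.27 to 10.5%) over the other genes of the chromosome, and the intervals overlapped. The strongest of the 10 were at ZNF554 (5.93), ZNF71 (4.60), ZNF813 (4.08), ZNF136 (3.28), and ZNF527 (3.19). In 5 of the 10 there was a DMSO peak elsewhere within 1 kb, as at ZNF554, where the DMSO peak of 7.83 was centred 357 bp inside the gene and the MS67 peak 31 bp inside it. ZNF527 had no DMSO peak within 1 kb. A difference in position follows here from how these genes were picked. Over the 106 members with a WDR5 peak within 1 kb in both libraries, the strongest peaks overlapped in 73 (68.9%). Their centres lay a median of 173.5 bp apart. The corresponding values were 62.2% and 276 bp in the other genes of the chromosome, and 60.8% and 260 bp over all protein-coding genes.

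In the wider window, 106 members had a WDR5 peak in both libraries, 34 with DMSO only, 11 with MS67 only, and 89 in neither. The share with a DMSO peak and none with MS67 was 24.3% (17.4 to 32.3%), beside 39.4% over all protein-coding genes and 37.5% (33.9 to 41.1%) over the other genes of the chromosome. The member share was the lower in these 2 libraries, and its interval did not overlap that of the other genes. Those other genes include 24 with other zinc finger symbols, such as ZSCAN or ZFP. Of 12 among them with a DMSO peak, 1 lacked an MS67 peak (8.33%, 0.211 to 38.5%), an interval that holds both shares. SS18::SSX promoter peaks with DMSO lay at 2 of the 24 (8.33%, 1.03 to 27.0%). Neither trait can thus be called particular to the members. With only as many DMSO peaks taken, by −log10 q, as the MS67 list holds, 7 of 70 members (10.0%, 4.12 to 19.5%) and 128 of 444 other genes (28.8%, 24.7 to 33.3%) lacked an MS67 peak. With peaks of −log10 q above 5 alone the shares were 54.9% (42.7 to 66.8%) and 83.0% (79.1 to 86.3%).

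**Figure D3:**
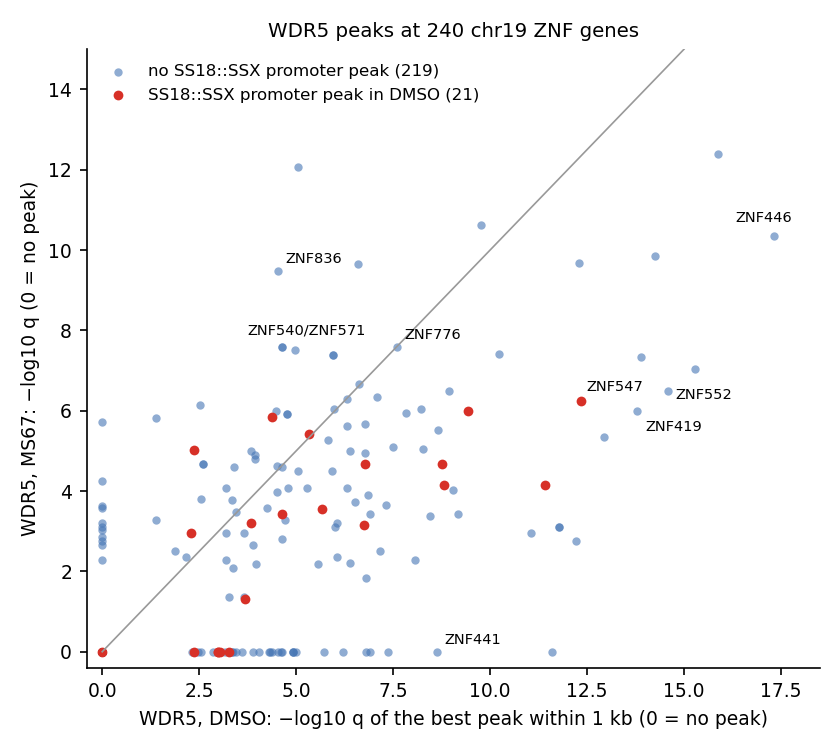
WDR5 −log10 q of the strongest peak within 1 kb of a start site for each of the 240 zinc finger genes, with DMSO on the x axis and MS67 on the y axis, where 0 stands for no peak and the line marks equal values. The 106 genes with both peaks lie off the axes and most fall under the line, ZNF836, ZNF540, and ZNF571 lie above it, and the 21 genes with an SS18::SSX promoter peak (red) are spread among the rest.

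The comparison was repeated among peaks of like strength. Members and other genes with a DMSO peak were put into quartiles of its −log10 q, with limits at 4.08, 5.72, and 7.86. In the lowest quartile 27 of 44 members (61.4%) and 41.8% of the other genes had an MS67 peak. In the second it was 22 of 32 (68.8%) against 62.6%, in the third 29 of 34 (85.3%) against 66.5%, and in the highest 28 of 30 (93.3%) against 77.7%. The member share was the higher in each quartile, while the intervals of the 2 sets overlapped in all 4.

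**Figure D4:**
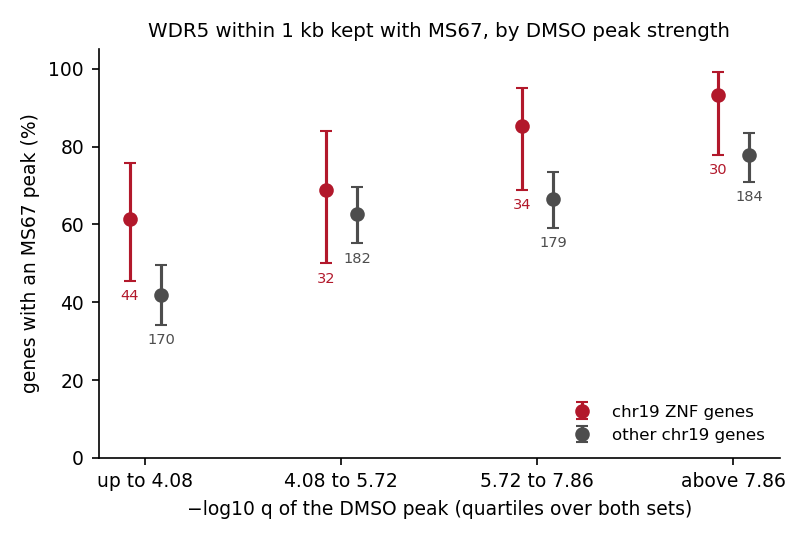
Percentage of genes whose WDR5 DMSO peak within 1 kb of a start was matched by an MS67 peak (y axis) in 4 quartiles of the DMSO −log10 q (x axis), for the zinc finger genes (red) and the other genes of chromosome 19 (grey), with exact 95% intervals and the number of genes under each. The red points run from 61.4% to 93.3% and the grey points from 41.8% to 77.7%.

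Where both libraries had a peak, most members had fewer fragments over the summit with MS67. The pileup with MS67 was a median of 0.703 times that with DMSO over 106 members, with 84 of them below 1, and 0.571 times over 447 other genes. Set against the coverage ratio of 0.458, the medians were 1.53 and 1.25, and 1.28 over all protein-coding genes. Only genes whose MS67 peak was called entered these ratios, so values above 1 cannot be read as a rise of WDR5 relative to coverage. The members also started from shallower peaks in a lower local background. Their DMSO peak within 1 kb had a median pileup of 10 and a background of 0.959, against 15 and 1.89 in the other genes, and with MS67 these values were 8 and 0.507 against 9 and 0.753. The part of the local background in the retained calls was not tested.

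With members less than 1 Mb apart counted as neighbours, the genes stood in 9 clusters of at least 5 members, which together held 231 of the 240. The cluster from ZNF628 to ZNF446 at the end of the long arm was the largest, with 57 members. WDR5 with DMSO lay within 1 kb of a start in 41 of them (71.9%, 58.5 to 83.0%) and WDR5 with MS67 in 36 (63.2%, 49.3 to 75.6%), while 39.6% (26.5 to 54.0%) of the 53 other genes inside the same span had a WDR5 peak with DMSO. SS18::SSX lay near 14 (24.6%, 14.1 to 37.8%), close to the share among the other genes of the chromosome. The cluster from ZNF101 to ZNF254 next to the centromere, which holds ZNF91 and ZNF93, spans 4.46 Mb with 37 members and 3 other genes. WDR5 with DMSO lay within 1 kb of 13 of these members (35.1%, 20.2 to 52.5%) and at the promoters of 4 (10.8%), and SS18::SSX near 2. The interval of this cluster did not overlap that of the cluster at the chromosome end, though these were the lowest and the largest of the 9. With MS67 the count in this cluster was also 13. They were not the same 13 genes, since some had a WDR5 peak with DMSO only and others with MS67 only. The other 7 clusters had WDR5 with DMSO at 54.2 to 80.0% of their members. The WDR5 peaks with DMSO had a median background of 0.735 in the ZNF101 to ZNF254 cluster and 1.84 in the ZNF628 to ZNF446 cluster. Of the 32-base words within 1 kb of the starts, a median of 8.76% were repeated on chromosome 19 in the 100 members without such a WDR5 peak. In the 140 members with one it was 5.91%. The part of background and of repeated sequence in the missing peaks was not tested.

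**Figure D5:**
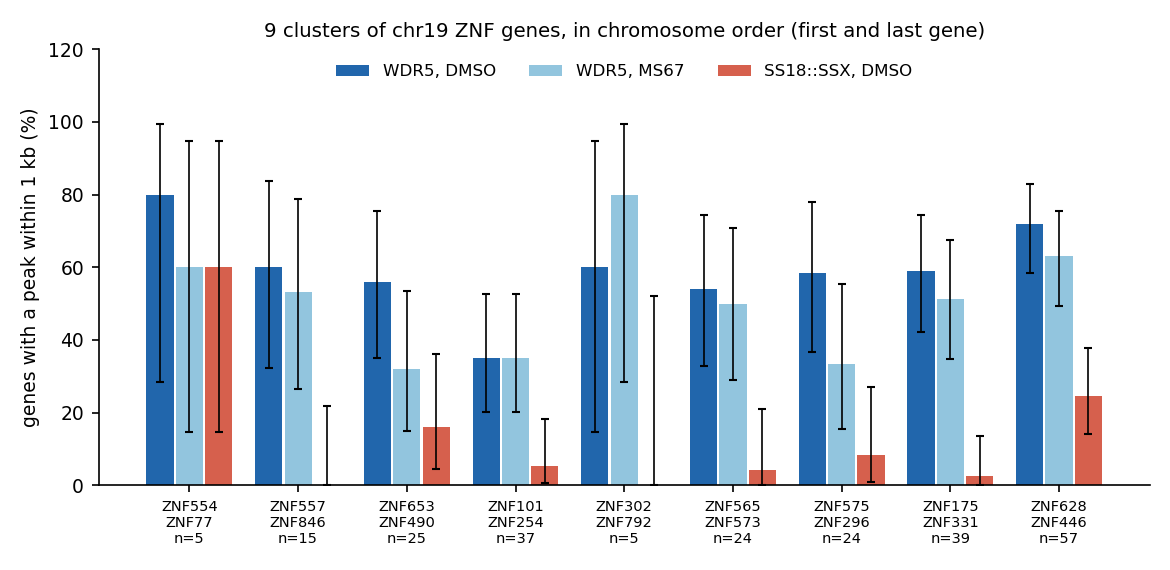
Percentage of members with a peak within 1 kb of a start site (y axis) in each of the 9 clusters in chromosome order (x axis, first and last gene and number of members), for WDR5 with DMSO (dark blue), WDR5 with MS67 (light blue), and SS18::SSX with DMSO (red), with exact 95% intervals. The fourth cluster, ZNF101 to ZNF254, has the lowest dark blue bar at 35.1%, and the ninth, ZNF628 to ZNF446, has 71.9% over its 57 members.

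The number of fingers and the neighbours of a gene were also compared with its WDR5 peaks. WDR5 with DMSO lay within 1 kb in 57.4% of the 61 members with up to 9 fingers, 56.9% of the 102 with 10 to 14, and 61.0% of the 77 with 15 or more, with overlapping intervals. A start of another gene lay within 1 kb of 114 members. Where that neighbour was protein-coding, 41 of 57 members had a WDR5 peak with DMSO (71.9%, 58.5 to 83.0%), against 70 of the 126 (55.6%, 46.4 to 64.4%) with no neighbour start. A peak between 2 such starts cannot be given to either gene. Of the 189 distinct WDR5 peaks with DMSO within 1 kb of the members, 9 were shared by more than 1 member.

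Outside the promoter windows, the gene bodies had fewer peaks per Mb than those of the other genes of the chromosome. For WDR5, with most peaks within 1 kb of a start, the bodies had more than those of all protein-coding genes. SS18::SSX with DMSO had 18 peaks there, or 2.48 per Mb (1.47 to 3.92), against 15.2 per Mb (13.8 to 16.8) in the other genes of the chromosome and 5.35 over all protein-coding genes, and 0 with MS67. WDR5 had 141 with DMSO, or 19.4 per Mb (16.3 to 22.9), against 37.8 (35.5 to 40.3) in the other genes and 13.4 (13.2 to 13.6) over all protein-coding genes. With MS67 it had 86, or 11.8 per Mb (9.48 to 14.6), against 16.4 (14.9 to 18.0) and 5.06 (4.94 to 5.18). Of the 141, 93 lay within 1 kb of a start (66.0%) and 21 more than 5 kb from any. The share within 1 kb was 40.9% in the other genes and 34.7% over all protein-coding genes. With MS67, 78 of the 86 lay within 1 kb (90.7%), against 50.9% and 51.9%. No density was computed without the peaks near starts, so the higher WDR5 density cannot be placed deeper in the gene bodies.

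ZNF536, which encodes a regulator of neuronal differentiation and lies outside the clusters in a gene of 10 start sites, held 12 of those 21 distant WDR5 peaks. It had 14 WDR5 body peaks with DMSO and 3 with MS67, all in introns, and 5 SS18::SSX body peaks with DMSO and 0 with MS67. Its strongest WDR5 peak had a −log10 q of 10.2 on 31 fragments (chr19:30253615-30253827), and the 2 SS18::SSX peaks at chr19:30668938-30669116 and chr19:30669890-30670042 lay inside and just after a WDR5 peak of 9.42 at chr19:30668476-30669543. With ZNF536 left out, WDR5 with DMSO had 18.7 body peaks per Mb and SS18::SSX 1.92. ZNF543 and ZNF575 came next with 3 WDR5 body peaks each, and ZNF101 and ZNF446 had 1 SS18::SSX body peak each, as had 11 further members. In ZNF586, 3 WDR5 peaks lay 44355, 45232, and 49995 bp from its starts, and the strongest (14.6) was the promoter peak of ZNF552, whose start lies inside the longer gene.

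The 3′ exons, which hold the finger arrays, had almost no peaks. With DMSO, a WDR5 peak was centred in the 3′ exon of 1 of the 240 members (0.417%, 0.0105 to 2.30%), against 3.47% of all protein-coding genes and 5.29% (4.08 to 6.71%) of the other genes of the chromosome. The gene was ZNF580, whose whole length is 8455 bp, with peaks of 2.03 and 3.14 at 580 and 1055 bp from a start. SS18::SSX had 0 of 240 with DMSO, which allows up to 1.25% by the limit of 3 counts and 1.53% by the exact interval, against 1.84% of all protein-coding genes and 2.35% (1.57 to 3.38%) of the other genes. WDR5 with MS67 had 0 of 240, against 1.32% and 2.68% (1.84 to 3.77%), and by the exact interval it could not be told from the former. The exons were then limited to those more than 5 kb from any start of their gene. The 140 such exons of members, with a median length of 3223 bp and 0.505 Mb in all, held 0 peaks in all 4 lists, where 0 allows up to 7.30 per Mb. The 428 of the other genes, with 0.533 Mb, held 18 WDR5 peaks and 13 SS18::SSX peaks with DMSO. Of the 32-base words in the 3′ exons, 13.5% occurred more than once on chromosome 19 in the members and 6.29% in the other genes, and the part of reads that align in several places in the lack of peaks was not tested.

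A list of genes with a described role held 13 members, and ZNF268, which was also on it, lies on chromosome 12. WDR5 with DMSO lay within 1 kb of 5 of the 13, where the share over all members was 58.3% and over all protein-coding genes 56.1%. The 5 were ZNF331, an imprinted gene (8.95), ZNF224, a repressor of the aldolase A gene (7.17), ZNF274, which recruits SETDB1 to zinc finger gene 3′ ends (3.44), ZNF420, a regulator of p53 activity also called APAK (3.41), and ZNF43 (3.27). With MS67 the values were 6.49 at ZNF331, 2.51 at ZNF224, and 4.60 at ZNF420, and no peak was listed at ZNF274 or ZNF43. ZNF808 had a peak with MS67 alone (2.65). ZNF91 and ZNF93, which silence SVA and LINE-1 elements, had no peak of either protein within 1 kb, and neither had ZNF154, ZNF671, ZNF132, ZNF382, or ZNF649. SS18::SSX was listed at 0 of the 13, a number too small to be told from its share of 12.1% over all members.

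Among 20 genes for the corepressors and heterochromatin factors through which KRAB zinc finger proteins act, WDR5 with DMSO lay at the promoter of 8 and within 1 kb of 13, and WDR5 with MS67 at 6 and 9. TRIM28, the universal KRAB corepressor, which itself lies on chromosome 19, had a WDR5 promoter peak of 7.52 and an SS18::SSX promoter peak of 5.51 with DMSO, and neither with MS67. SETDB1 had WDR5 values of 2.26 with DMSO and 2.87 with MS67. SS18::SSX with DMSO was also at the promoters of TASOR, a subunit of the HUSH silencing complex (3.81), and CHD4, the NuRD remodeler (6.07), and at none of the 20 with MS67. PPHLN1, another HUSH subunit, had the strongest WDR5 peak within 1 kb with DMSO (14.3, against 4.47 with MS67). DAXX, a histone H3.3 chaperone, had 8.31 with DMSO and no MS67 peak, and MPHOSPH8, the third HUSH subunit, had 6.23 with MS67 and none with DMSO. These counts stood near the shares of all protein-coding genes given above for the same windows.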

How the data were processed

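CUT&RUN libraries of HSSY II cells were analysed as 4 deposited peak lists, 1 per condition. The authors aligned reads to hg38 with Bowtie2, removed PCR duplicates with Picard and called peaks in each library with MACS2. Per the labels, SAMtools 1.9, bedtools 2.28.0 and deepTools 3.3.0 were also used. MACS2 options and the use of a control library are not given in the sources used here. The deposited values of a peak are its coordinates, the fold enrichment of its summit over local background (a ratio), −log10 p and −log10 q, and a score not used further. The lists carry no spike-in scaling.

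Pileup and local background at each summit were solved from the fold and the −log10 p, and whole-number pileups fitted 100% of peaks to within 0.001 in −log10 p. The lowest background of a list stood for its coverage. Genes, start sites, exons and coding sequences were those of GENCODE 44, and promoter sequences those of RefSeq (GRCh38.p14). The 3′ exon was the last exon of the transcript with the longest coding sequence. Gene-body peaks were those centred in the gene and outside its own promoter windows. Neighbouring members were grouped into clusters, and only clusters of at least 5 were described. Python 3.11.15 with SciPy 1.17.1 was used. The overlap steps were tested on planted peaks. With 1 library per condition no test between conditions was made.

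The members, gene lists and measures were chosen with earlier results of these data known. The genes named were the 12 strongest SS18::SSX promoters, the 5 strongest WDR5 promoters of each library and of each kind of difference between the libraries, those with a 3′ exon peak, the 3 with most body peaks, and the listed genes with peaks. Genes outside that rule are ZNF428, ZNF729, ZNF616, ZNF497, ZNF417, ZNF175, and ZNF586, the promoters printed, and listed genes without peaks. They were chosen after their values were seen. The stricter peak limits were those that a supplementary legend of the study states for comparing its peak sets, and not all deposited peaks pass them. The alternatives changed the window, the peak threshold, the gene sets, the merging of peaks, and the size of the DMSO lists.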

Additional observations from a re-analysis of the deposited data

How the results depend on the processing

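Of 97 values recomputed for 13 shares and densities, 47 stayed within the 95% interval of the value reported and 50 did not. The window at 1 kb on either side of a start and the removal of ZNF536 were chosen after seeing the data. No paired analysis was possible because there was 1 library per condition, and no replicate could be left out. What limits these results is the depth of the WDR5 MS67 library and the 240 genes, and the cause of a change was not tested unless fewer peaks or starts enter by construction.

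With only the 5′ end of each gene as its start, WDR5 promoter peaks marked 21.7% of members with DMSO and 10.8% with MS67, 63.5% of the former had none with MS67, and the other genes of the chromosome gave 27.3% for WDR5, 12.6% for SS18::SSX and 63.0% without an MS67 peak. With any overlap of 1 bp counted, WDR5 was at 46.7% and 36.2% of members and 52.2% of the other genes, of which 43.1% had no MS67 peak. With −log10 q above 3 and a fold above 6 (WDR5) or above 3 (SS18::SSX), members gave 9.17% for WDR5 with DMSO, 10.8% with MS67, 5.42% for SS18::SSX, 0.833% for both, and 68.2% without an MS67 peak, while the other genes gave 12.1%, 13.8% for SS18::SSX and 83.3%. The body densities were then 6.34 and 1.24 peaks per Mb, and the 3′ exon share of WDR5 was 0%. With −log10 q above 5, members gave 13.3%, 9.17%, 2.50%, 1.25%, and 68.8% in the same order, the other genes 25.5%, 6.72%, and 87.0%, the bodies 8.95 and 0.138 per Mb, and the 3′ exons 0%. With peaks within 1 kb merged, WDR5 with DMSO was at 27.1% of members and 39.4% of the other genes, with 14.9 body peaks per Mb. With the DMSO lists reduced to the number of MS67 peaks, WDR5 was at 13.3% of members and 25.5% of the other genes, SS18::SSX at 0.417% and 1.13%, both at 0.417% of members, and 40.3% of the other genes lacked an MS67 peak. With a promoter called lost only where no MS67 peak lay within 1 kb of the DMSO peak, the losses were 26.7% and 38.9%. The window of 1 kb on either side gave 58.3% and 48.8% of members for WDR5, 24.3% lost, 11.7% with both proteins, and for the other genes 57.8%, 27.5% for SS18::SSX, and 37.5% lost.

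The lower share of SS18::SSX promoters in members than in the other genes held in direction under each alternative that applied to both sets, but the intervals overlapped with only the 5′ end of each gene (4.18 to 11.1% against 10.8 to 14.6%) and with the reduced DMSO lists (0.0105 to 2.30% against 0.621 to 1.89%). The DMSO share of WDR5 was likewise lower in members in the promoter window under each, and not in the window of 1 kb on either side. Its intervals overlapped as reported, with only the 5′ end, with any overlap of 1 bp, and with the stricter limits on −log10 q and fold. They did not with −log10 q above 5, with merged peaks, or with the reduced DMSO lists. The share of WDR5 promoters without an MS67 peak was lower in members than in the other genes except with only the 5′ end of each gene, where it was slightly higher. The intervals of this share overlapped under each alternative in the promoter window, and did not in the window of 1 kb on either side.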
